A study of Mus musculus with 60 samples.

Results

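Solute carriers are the transport proteins whose gene symbols begin with Slc, a family number and a member number. Genes were taken from the array annotation when their symbol had that form, and Slc7a11, Slc7a2, Slc3a2 and Slc2a1 were left out by the rule. This gave 350 genes, measured by 638 probes, of 19057 genes with a symbol of their own on the array. A gene was kept in an experiment when its probe had a detection p-value under 0.01 on at least 3 of that experiment's arrays. Of the 350 genes, 152 were kept among 8946 genes tested in the first macrophage experiment, 162 among 9213 in the second and 160 among 9356 in injured carotid arteries. In all, 194 were kept in at least 1 experiment, 125 in all 3 and 156 in none. The rule used symbols and detection p-values, but it was set with earlier results of these data known. No adjusted p below is adjusted over the solute carriers alone.

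Solute carriers sit in the plasma membrane, in lysosomes, in the Golgi and in the inner membrane of mitochondria, and move sugars, amino acids, nucleosides, vitamins, metals and other small molecules down gradients or against them by coupling to another ion. Macrophages depend on them to feed the metabolic switch that follows activation, to empty lysosomes of digested cargo, and to recycle iron taken up from old red cells. Iron export, zinc export and lysosomal transport have each been tied to how macrophages handle infection. The genes were grouped by substrate. The largest groups on the array were 61 genes for amino acids, creatine and related compounds, 53 for inorganic ions, 46 mitochondrial carriers, 40 for organic ions and bile acids, 32 for metals and heme, 27 for nucleotide sugars and 27 for sugars. Smaller groups carried carboxylates, vitamins, nucleosides, lipids and choline, and peptides. A further 5 genes taken in by the rule, such as Slc4a1ap, are only named after a carrier. They stay in all counts below.

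Mitochondrial carriers were kept for 30, 29 and 28 of 46 genes in the 3 experiments, carriers of metals and heme for 24, 24 and 21 of 32 and carriers of amino acids for 20, 23 and 28 of 61. Carriers of organic ions and bile acids were kept for only 8, 9 and 9 of 40 genes. Of the genes followed by name, the amino acid carriers Slc1a5 and Slc7a1, the lactate and pyruvate carrier Slc16a1 and the insulin-responsive glucose transporter Slc2a4 did not reach the detection rule in any experiment, and Slc7a5 had no matching symbol and was not analysed here. Low signal of a probe is not absence of the gene.

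The data are 60 Illumina BeadChip arrays of mouse samples, all with the strain label C57BL/6, in a study of high-density lipoprotein (HDL), the plasma particle that accepts cholesterol from cells, and of ATF3, a stress-induced transcription factor. The first experiment held wild-type (WT) macrophages grown from bone marrow with 40 ng/ml M-CSF for 6 d, in 4 groups of 3 arrays: control, CpG, HDL, and HDL with CpG. The second held WT macrophages and macrophages with the genotype label ATF3-/-, each in 6 groups of 3 arrays. These were control, either ligand (CpG or P3C), HDL, and HDL followed by either ligand. The third held electrically injured common carotid arteries of male mice about 12 weeks old, WT or labelled ATF3-/-, with HDL or PBS, in 4 groups of 3 arrays. HDL was given to macrophages at 2 mg/ml for 6 h before a further 4 h of stimulation, CpG DNA, which acts on TLR9, at 100 nM, and the TLR2 ligand P3C at 50 ng/ml, with a stated stimulation period of 10 h in all groups. For the arteries, HDL at 20 mg/kg or PBS was injected 3 h after injury, and the stated period was 12 h. The growth protocol names marrow from WT mice aged 6 to 8 weeks. How the ATF3-/- line was made, and the source of the HDL, are not described in the labels, which also leave unsaid whether each array had its own animal or culture, so p-values measure only the spread between these arrays.

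Levels are log2 intensities after background correction and quantile normalisation, and changes are differences in log2 ± SE from limma over 3 arrays per group, where a change of 1 is 2-fold. "Rose" and "fell" mean a Benjamini-Hochberg adjusted p under 0.05 over all genes tested in that experiment. "At least" gives a lower bound in folds for a gene whose probe was detected on none of the arrays of one group. The 3 arrays per group limit the precision. On each macrophage array 26.4% to 33.8% of probes were detected, with 123 to 150 solute carriers among them. All 5 macrophage markers were detected on every macrophage array and no marker of T cells, B cells, fat or red cells was detected on any. Markers of stromal cells were present: Acta2 (smooth muscle) read 11.59 to 12.79 and Dcn (fibroblast) 9.18 to 10.15 in the first experiment, both were detected on every macrophage array, and Tagln, Col1a1, Col1a2 and Pdgfra were detected on all 12 arrays of the first, while Cnn1 and Myh11 were detected on no macrophage array. Their part in the results was not tested. The Atf3 probe gave 11.12 to 11.28 in WT control cells of the second experiment and 12.37 to 12.91 in control cells labelled ATF3-/-, so it was higher under the label of its deletion. The position of that probe in the gene is not given, and a probe outside a deleted part would not test the label. In the first experiment 1 chip held all 4 groups, 1 held only arrays with HDL and 1 only arrays without it, so values within that shared chip, or with the chip in the model, are given beside the main results.

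Ligands that activate Toll-like receptors moved a large share of the solute carriers. With CpG in the first experiment 21 of 152 rose, beside 12.8% of all genes tested, and 42 fell, beside 21.3%. In the second experiment, CpG and P3C in WT cells were compared with the same control arrays. With CpG 36 of 162 rose, beside 22.1% of all genes tested, and 50 fell, beside 28.9%. Fewer rose with CpG under median scaling, as given with the processing below. With P3C 36 of 162 rose, beside 21.5% of all genes tested, and 50 fell, beside 28.3%. The medians over the solute carriers were -0.09, -0.03 and -0.12, close to -0.11, -0.07 and -0.07 over all genes. The solute carriers thus moved about as often as other genes, and the counts alone say nothing particular about them. Of the 21 solute carriers that rose with CpG in the first experiment, 18 rose with CpG in WT cells of the second, which is 85.7% of the first list and 50.0% of the 36 of the second, beside 86.6% and 50.2% for all genes. Of the falling ones tested in both, 33 were shared, 80.5% of 41 and 68.8% of 48, beside 86.5% and 62.7% for all genes.

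**Figure D1:**
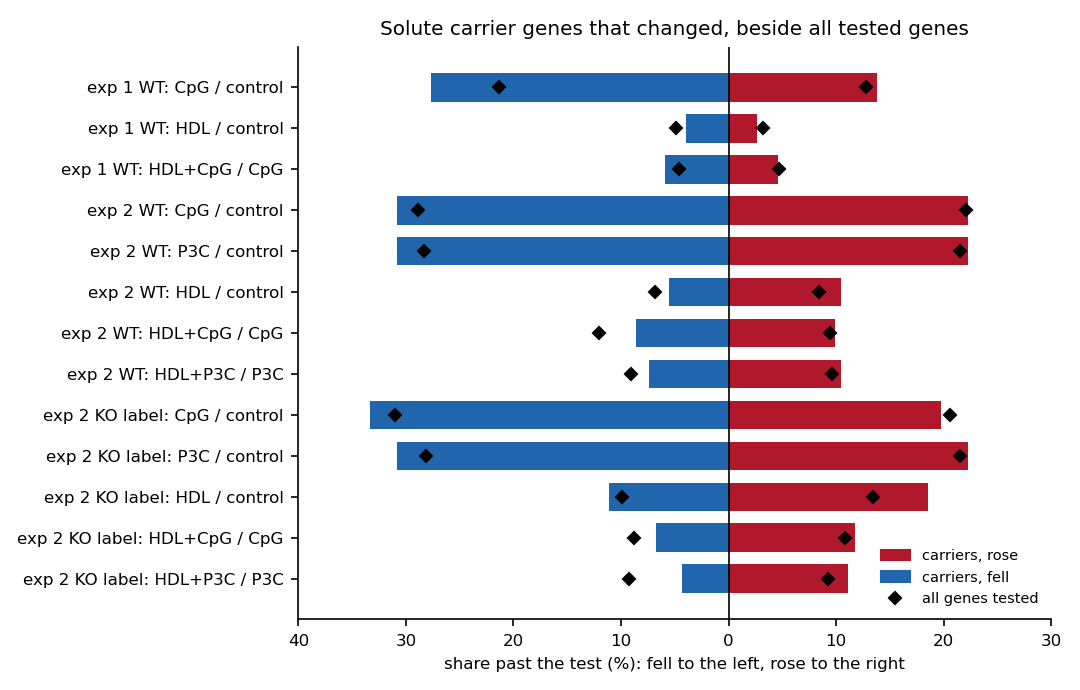
Percent of kept solute carriers that rose (bars to the right) or fell (bars to the left) at an adjusted p under 0.05 in each of 13 macrophage comparisons, with diamonds for the same percent over all genes tested. Bars and diamonds lie close to each other in most comparisons. The longest bars are those of CpG and P3C, such as the 50 carriers of 162 that fell with CpG in WT cells of the second experiment.

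Sugar carriers mostly fell. With CpG 6 of 9 fell and 1 rose in the first experiment, beside 21.3% and 12.8% of all genes. In WT cells of the second 7 of 12 fell with CpG and 8 with P3C, beside 28.9% and 28.3%, again with 1 that rose. The counts with CpG were the same without the background correction, under median scaling and in the deposited normalised values. Slc37a2, an exchanger of sugar phosphates for phosphate, read 10.42, 10.92 and 11.09 in control arrays and 8.31, 8.72 and 8.76 with CpG in the first experiment, and 11.56, 11.61 and 11.65 against 9.63, 9.75 and 9.85 with CpG and 9.45, 9.66 and 9.75 with P3C in the second. No array with a ligand overlapped the controls, and the falls were -2.21 ± 0.25, -1.87 ± 0.14 and -1.99 ± 0.14. A second probe of Slc37a2 fell less, by 0.58, 0.72 and 1.08 on the log2 scale. Slc45a4, of a family that carries sugars with protons, fell by 2.06, 2.22 and 2.19 on the log2 scale in the same order. The neuronal-type glucose transporter Slc2a3 (GLUT3) fell by 0.98, 1.15 and 1.31. The sugar carrier that rose was Slc2a6 (GLUT6), an intracellular hexose transporter, from 8.46, 8.86 and 8.91 to 10.65, 10.71 and 10.93 in the first experiment, a rise of 2.02 ± 0.18 (limma adjusted p = 4.44e-06), and by 2.30 ± 0.16 and 1.97 ± 0.16 in the second.

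Of 7 vitamin carriers tested, 4 fell with CpG in the first experiment (21.3% of all genes), 3 fell with CpG (28.9%) and 3 with P3C (28.3%) in WT cells of the second, and none rose. The steepest fall of any solute carrier in all 3 comparisons was that of Slc46a3, a lysosomal member of the folate carrier family. Its level was 10.88, 10.99 and 11.31 in control and 6.69, 7.48 and 7.50 in CpG arrays of the first experiment. In the second it was 11.54, 11.93 and 12.01 in control, 7.44, 7.85 and 8.20 with CpG and 7.85, 7.93 and 8.15 with P3C. The groups were more than 3 log2 units apart on every array, with changes of -3.84 ± 0.22 (limma adjusted p = 1.12e-07), -4.00 ± 0.17 (7.8e-18) and -3.85 ± 0.17 (2.37e-17). Slc46a1, the proton-coupled folate transporter, fell by 1.50, 1.01 and 1.25 in that order. The RefSeq window of 250 bases before to 50 after the start of Slc46a3 (GRCm38.p6, chr5:147894766-147895065, minus strand, 5′ to 3′) is shown because this gene had the largest change, with matches to TGACNNNGC, the core of the antioxidant response element, in capitals.
Slc46a3: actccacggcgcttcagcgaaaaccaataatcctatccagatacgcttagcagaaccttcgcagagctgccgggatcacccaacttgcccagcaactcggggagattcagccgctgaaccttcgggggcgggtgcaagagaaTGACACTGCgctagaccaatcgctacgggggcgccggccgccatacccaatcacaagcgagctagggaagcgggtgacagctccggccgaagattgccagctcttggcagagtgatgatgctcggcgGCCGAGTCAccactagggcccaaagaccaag

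Other carriers of the lysosome fell as well, of which Slc17a5 and Slc38a9 were chosen after their values were seen. Slc29a3 (ENT3), which lets nucleosides out of lysosomes, fell by 1.42, 1.90 and 1.58 on the log2 scale with CpG in the first experiment, CpG in the second and P3C. Slc17a5 (sialin), the lysosomal exporter of sialic acid, fell by 1.45, 1.35 and 1.32. Slc38a9, which senses arginine in the lysosome for mTORC1, fell by 1.27, 1.58 and 1.48. Slc15a3, a lysosomal carrier of histidine and small peptides, went the other way: its controls read 10.24, 10.50 and 10.63 and its CpG arrays 12.02, 12.20 and 12.42, a rise of 1.76 ± 0.21, with 1.81 ± 0.15 and 1.99 ± 0.15 in the second experiment. No list of lysosomal carriers was tested, so these genes do not speak for such carriers as a group.

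Metal and heme carriers split. With CpG 7 of 24 rose and 5 fell in the first experiment, beside 12.8% and 21.3% of all genes. In WT cells of the second 10 rose and 4 fell with CpG, beside 22.1% and 28.9%. With P3C 9 rose and 4 fell there, beside 21.5% and 28.3%. Under median scaling the same counts were 5 and 5, 5 and 4, and 5 and 3, for which shares over all genes are not given. The copper carriers rose: Slc31a2 was at 8.01, 8.21 and 8.34 in control and 10.30, 10.30 and 10.32 in CpG arrays of the first experiment, apart on every array (2.12 ± 0.22), and rose by 1.81 ± 0.16 and 1.84 ± 0.16 in the second, while the copper importer Slc31a1, named after its values were seen, rose by 0.90, 0.97 and 1.15. The divalent metal transporter Slc11a2 (DMT1) rose by 0.91, 0.84 and 0.91. Slc39a14 (ZIP14), a zinc and iron importer, was not above background in control cells and rose at least 1.95-fold, 2.05-fold and 1.76-fold. Slc39a13 (ZIP13), a zinc carrier of the secretory pathway, rose by 1.24 ± 0.26, 1.92 ± 0.13 and 2.18 ± 0.13. Slc40a1 (ferroportin), the iron exporter, fell by 2.21 ± 0.16, 2.16 ± 0.20 and 2.04 ± 0.20, and its arrays are given with HDL below. Slc11a1 (NRAMP1), the metal carrier of the phagosome, passed in the second experiment, by 0.40 ± 0.11 and 0.34 ± 0.11, beside 0.14 ± 0.12 (limma adjusted p = 0.414) in the first. The difference between experiments was not tested.

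Carriers of nucleosides and of dicarboxylates rose the most with CpG in the first experiment. Slc13a3 (NaDC3), a sodium-coupled carrier of succinate and related dicarboxylates, read 5.98, 6.63 and 6.97 in control and 9.50, 9.52 and 9.76 in CpG arrays of the first experiment, a rise of 3.06 ± 0.22. Its WT arrays in the second read 6.95, 7.08 and 7.50 in control, 8.29, 10.27 and 10.56 with CpG and 10.44, 10.51 and 10.54 with P3C, rises of 2.53 ± 0.35 and 3.32 ± 0.35. The low value of 8.29 is CpG replicate 1 of WT cells, which was also the lowest of its group for Slc28a2b (6.27), Slc28a2 (4.71) and Slc7a7 (7.46). Without that array the rise of Slc13a3 was 3.23 and that of Slc28a2b 2.69. Slc28a2b rose by 3.21 ± 0.24, 1.97 ± 0.35 and 2.08 ± 0.35. Slc28a2, the sodium-coupled carrier of purine nucleosides, was not above background in control cells and rose at least 3.23-fold, 2.29-fold and 2.67-fold. Without CpG replicate 1 the rise of Slc28a2 in WT cells was 2.30 on the log2 scale in place of 1.50. Slc28a2 and Slc28a2b are near-identical copies, so which of them a probe reads is uncertain.

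Mitochondrial carriers moved in both directions. With CpG 4 of 30 rose and 4 fell in the first experiment, beside 12.8% and 21.3% of all genes. In WT cells of the second 6 of 29 rose and 10 fell with CpG, beside 22.1% and 28.9%. With P3C 8 rose and 8 fell there, beside 21.5% and 28.3%. The rises were led by 3 carriers. Slc25a33, which imports pyrimidine nucleotides, rose by 1.49 ± 0.22, 1.90 ± 0.17 and 2.28 ± 0.17. Slc25a10, the dicarboxylate carrier, rose by 1.79, 1.41 and 1.84, and Slc25a25, an exchanger of ATP-magnesium for phosphate, by 1.67, 1.40 and 1.45. The adenine nucleotide translocases Slc25a4 and Slc25a5, which export ATP, passed in none of 14 macrophage comparisons, nor did the lactate exporter Slc16a3, the phosphate importer Slc20a1, or the neutral amino acid carriers Slc1a4 and Slc38a2. In the first experiment the group means of Slc25a4 (4.34 to 4.96) and Slc1a4 (4.99 to 5.13) lay near background, beside 12.26 to 12.44 for Slc25a5. The SD of Slc20a1 within groups was 0.63 to 0.96 there. A miss for such genes does not show that they stayed constant. With the chip in the model Slc38a2 did pass, for HDL over control in the first experiment (0.88, limma adjusted p = 0.00602), for HDL over CpG there (0.63, 0.0304), and in WT cells of the second for HDL over CpG (0.74, 0.0254) and over P3C (0.61, 0.0336). Of the 167 solute carriers tested in either macrophage experiment, 134 (80.2%) passed in at least 1 of those 14 comparisons, beside 77.2% of all genes, and 33 in none.

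Of the amino acid carriers, 7 of 20 fell and 1 rose with CpG in the first experiment, where 21.3% of all genes fell and 12.8% rose. With either ligand in WT cells of the second 7 of 23 fell and 4 rose, near the shares over all genes. Those that rose included Slc7a7 (y+LAT1), which exchanges cationic for neutral amino acids, by 1.36 ± 0.31, 0.81 ± 0.22 and 1.10 ± 0.22. Slc6a8, the creatine transporter, fell by 1.25, 1.64 and 1.56 on the log2 scale. Slc43a2, a carrier of neutral amino acids, fell by 1.17 in the first experiment and at least 1.2-fold and 1.26-fold in the second, where it was not above background with a ligand. Of the other classes, nucleotide sugar carriers fell for 3, 6 and 6 of 18 and rose for 2, 1 and 2. Carriers of inorganic ions fell for 7, 5 and 6 of 16 and rose for 0, 5 and 4. Over all genes 21.3%, 28.9% and 28.3% fell and 12.8%, 22.1% and 21.5% rose. Slc44a1, a choline carrier, rose by 0.79, 0.78 and 0.98 with its brightest probe, but its 3 other probes ranged from -0.39 to 0.91, so its direction is uncertain. The mean over 4 neutrophil markers was 5.94 to 6.51 in control and 6.65 to 7.16 in CpG arrays of the first experiment, with 3 of 4 detected and Mmp8 at background on every array. Their part in these changes was not tested.

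**Figure D2:**
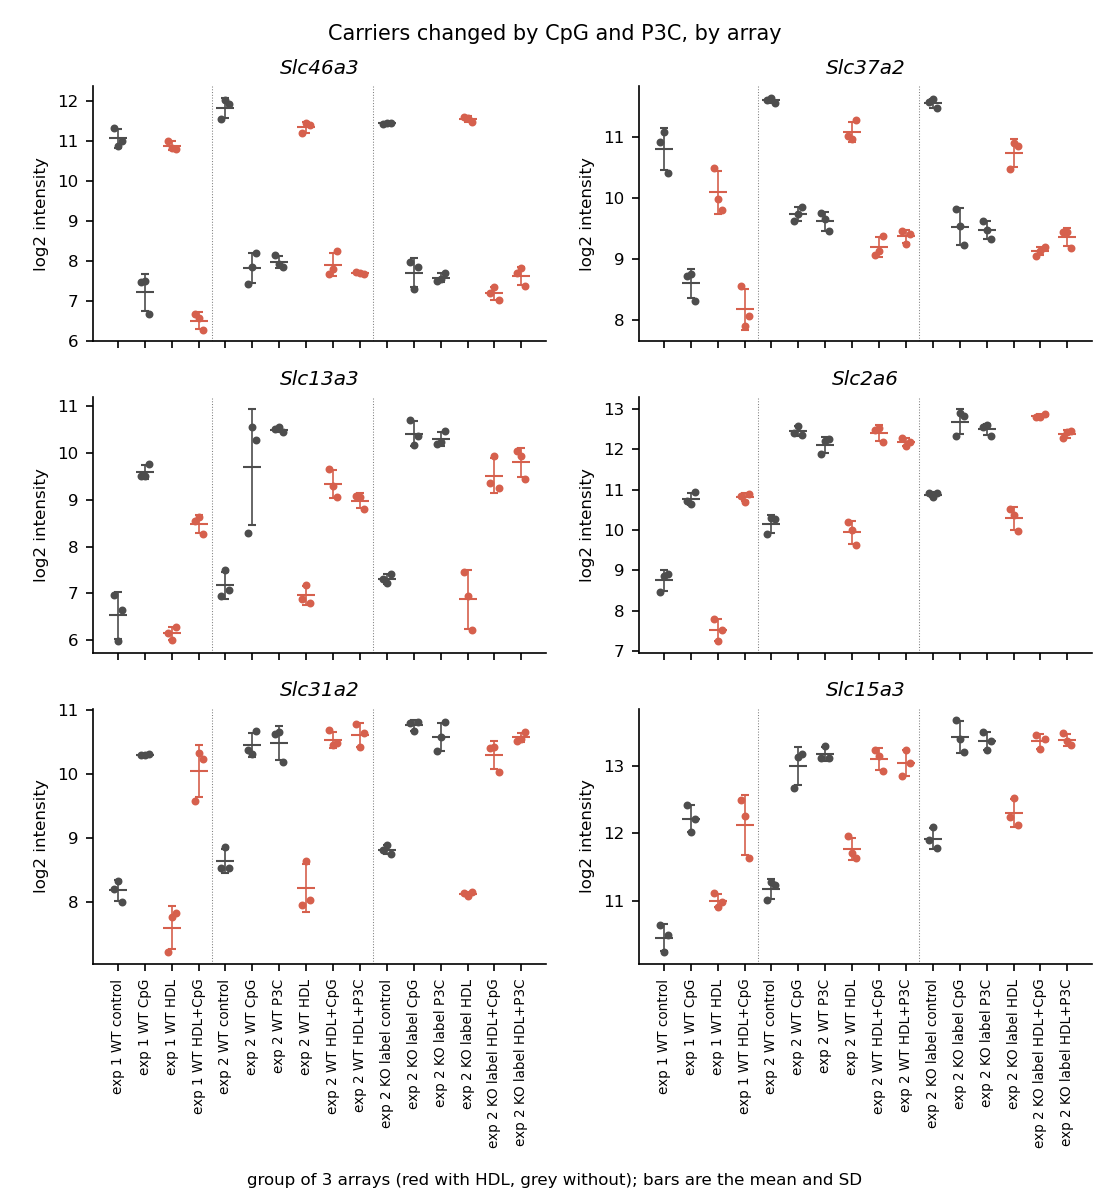
Log2 intensity of Slc46a3, Slc37a2, Slc13a3, Slc2a6, Slc31a2 and Slc15a3 on each macrophage array, by group, with group means and SD and with groups that had HDL in red. Slc46a3 and Slc37a2 drop and the other 4 climb with CpG or P3C in both experiments and both labels, with or without HDL.

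Cells labelled ATF3-/- responded to the ligands with similar counts. Against their own controls, which CpG and P3C again share, with CpG 32 of 162 rose, beside 20.6% of all genes tested, and 54 fell, beside 31.0%. With P3C 36 of 162 rose, beside 21.5% of all genes tested, and 50 fell, beside 28.1%. Fewer rose with either ligand under median scaling, as given with the processing below. Medians were -0.16 and -0.11, beside -0.10 and -0.06 over all genes. Slc46a3 changed by -3.73 ± 0.17 with CpG and -3.85 ± 0.17 with P3C in these cells, and Slc13a3 rose by 3.10 ± 0.35 and 2.98 ± 0.35.

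HDL alone moved fewer solute carriers. In the first experiment 4 of 152 rose, beside 3.23% of all genes tested, and 6 fell, beside 4.85%. With the chip in the model 8 rose there, beside 4.26%, and 6 fell, beside 4.63%, and those that rose beyond the first 4 were Slc38a2, Slc17a5, Slc6a9 and Slc25a33. With HDL in WT cells of the second 17 of 162 rose, beside 8.37% of all genes tested, and 9 fell, beside 6.88%. In cells labelled ATF3-/- 30 of 162 rose, beside 13.4% of all genes tested, and 18 fell, beside 9.89%. The medians were 0.01, 0.02 and -0.00, beside -0.04, -0.00 and 0.02 over all genes. All 4 that rose in the first experiment also rose in WT cells of the second, 23.5% of the 17 there, beside 86.8% and 33.0% for all genes. With CpG present, HDL and CpG against CpG alone gave, in the first experiment, 7 up (4.66% of all genes) and 9 down (4.62%), with a median of -0.01 beside -0.05. The same comparison in WT cells of the second gave 16 up (9.39%) and 14 down (12.0%), and in the other label 19 up (10.8%) and 11 down (8.81%). HDL and P3C against P3C alone gave 17 up (9.57%) and 12 down (9.07%) in WT cells and 18 up (9.22%) and 7 down (9.30%) in the other label. Many of these calls in the second experiment depend on quantile normalisation, and under median scaling the counts with HDL alone were 5 up and 1 down in WT cells and 8 up and 3 down in the other label.

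Slc22a4, Slc40a1, Slc6a8 and Slc30a1 were the 4 carriers that rose in all 8 comparisons of HDL with the matching group without it. These are 4 of the 147 tested in both experiments (2.72%), beside 1.54% of all genes. Slc22a4 (OCTN1) is a carrier of organic cations best known for taking up the fungal antioxidant ergothioneine. In the first experiment its level was 5.68, 5.72 and 6.07 in control and 7.45, 7.53 and 7.72 with HDL, and 5.24, 5.27 and 5.39 with CpG and 8.18, 8.30 and 8.72 with HDL and CpG. Every array with HDL was above every array without it, by 1.74 ± 0.17 over control (limma adjusted p = 7.57e-05) and 3.10 ± 0.17 over CpG (1.7e-06). Within the shared chip these were 1.91 and 3.27. In WT cells of the second experiment it read 6.29, 7.0 and 7.14 in control, 5.81, 5.85 and 6.47 with CpG and 5.46, 5.67 and 6.09 with P3C. With HDL it read 8.43, 8.43 and 8.83 alone, 8.62, 8.76 and 8.87 with CpG and 8.94, 8.99 and 9.01 with P3C. The groups with and without HDL again did not overlap, with rises of 1.75 ± 0.22, 2.70 ± 0.22 and 3.24 ± 0.22. In cells labelled ATF3-/- it was lower throughout, 4.97, 5.22 and 5.40 in control where it was detected on 1 of 3 arrays, and 6.64, 6.70 and 6.93 with HDL (1.56 ± 0.22), and rose at least 2.57-fold over CpG and at least 2.93-fold over P3C, where it was not above background. Without background correction the rise over control was 0.98 in the first experiment and 0.62 in cells labelled ATF3-/-, and the calls held under all 14 alternatives in each of the 8 comparisons.

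Slc40a1, ferroportin, is the exporter through which macrophages return recycled iron to plasma. Its level was 11.86, 11.92 and 11.94 in control, 12.70, 12.85 and 13.07 with HDL, 9.42, 9.81 and 9.84 with CpG and 12.32, 12.45 and 12.54 with HDL and CpG in the first experiment. HDL with CpG thus lay above the untreated controls on every array, while CpG alone lay below them. The rise with HDL was 0.97 ± 0.16 without CpG and 2.75 ± 0.16 with it, or 0.85 and 3.01 within the shared chip. The levels in WT cells of the second experiment were 12.98, 12.99 and 13.09 in control, 10.38, 10.88 and 11.33 with CpG and 10.79, 10.98 and 11.16 with P3C. With HDL they were 14.12, 14.13 and 14.14 alone, 13.06, 13.23 and 13.38 with CpG and 13.38, 13.45 and 13.72 with P3C. The rises over the matching group without HDL were 1.11 ± 0.20, 2.36 ± 0.20 and 2.54 ± 0.20, with no overlap. In cells labelled ATF3-/- they were 1.79 ± 0.20, 2.50 ± 0.20 and 2.83 ± 0.20. All 8 calls held under all 14 alternatives of each.

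The other metal carriers with HDL were led by Slc30a1 (ZnT1), the zinc exporter of the plasma membrane. In the first experiment it read 6.60, 6.77 and 7.15 in control, 7.50, 7.63 and 7.78 with HDL, 6.44, 6.68 and 6.68 with CpG and 8.43, 8.59 and 9.14 with both. No array with HDL overlapped its comparison group, and the rises were 0.79 ± 0.20 over control (limma adjusted p = 0.0335) and 2.12 ± 0.20 over CpG (5.18e-05). In WT cells of the second experiment its rises with HDL were 0.59 ± 0.18 alone, 1.64 ± 0.18 with CpG and 1.78 ± 0.18 with P3C, and in the other label 0.51 ± 0.18, 1.29 ± 0.18 and 1.26 ± 0.18. The rises over control are the less firm ones: that of WT cells was 0.38 with the chip in the model (adjusted p = 0.162), and in the first experiment leaving out any 1 of 5 arrays took the adjusted p above 0.05. Counts over the 24 metal and heme carriers in the second experiment follow for HDL alone and HDL with CpG or P3C. In WT cells 4, 6 and 6 rose (8.37%, 9.39% and 9.57% of all genes) and 2, 1 and 1 fell (6.88%, 12.0% and 9.07%). In the other label 9, 7 and 6 rose (13.4%, 10.8% and 9.22%) and 3, 2 and 1 fell (9.89%, 8.81% and 9.30%). Under median scaling the counts in WT cells were 1, 2 and 3 up and 0, 1 and 1 down. Those in the other label were 2, 4 and 2 up and 1, 0 and 0 down. Smaller rises in the second experiment were those of Slc48a1 (HRG1), which moves heme out of lysosomes, by 0.39 ± 0.12 over CpG and 0.42 ± 0.12 over P3C in WT cells, and of Slc11a1, by 0.40 ± 0.11 over control. The mitochondrial iron importer Slc25a37 (mitoferrin-1) rose with HDL over CpG from 7.59, 7.92 and 7.96 to 8.46, 8.98 and 8.99 in the first experiment (0.99 ± 0.24) and by 1.65 ± 0.18 and 1.82 ± 0.18 in WT cells and cells labelled ATF3-/- of the second.

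In the amino acid group HDL raised the Slc6 family members Slc6a8 and Slc6a9 and lowered Slc6a12, which is given with the falls below. Slc6a8, the creatine transporter, read 9.87, 10.02 and 10.07 in control, 11.41, 11.42 and 11.50 with HDL, 8.60, 8.66 and 8.95 with CpG and 10.09, 10.50 and 10.51 with both in the first experiment. The rises were 1.46 ± 0.16 over control and 1.63 ± 0.16 over CpG, or 1.59 and 1.70 within the shared chip, with no overlap. In the second experiment they were 0.93 ± 0.14, 1.39 ± 0.14 and 1.43 ± 0.14 over control, CpG and P3C in WT cells and 1.10 ± 0.14, 1.17 ± 0.14 and 1.24 ± 0.14 in the other label. Slc6a9 (GlyT1), the glycine transporter, read 4.75, 4.89 and 5.12 in WT control cells and 5.69, 5.92 and 6.10 with HDL, and 5.31, 5.56 and 5.67 with P3C and 7.26, 7.36 and 7.57 with HDL and P3C. Its probe was detected on 1 of the 3 WT control arrays and on 2 of 3 with P3C. These groups did not overlap, and its rises with HDL were 0.98 ± 0.19 alone, 1.33 ± 0.19 with CpG and 1.89 ± 0.19 with P3C. In the first experiment its rise over CpG passed (1.19 ± 0.27, limma adjusted p = 0.0148) and that over control did not (0.43 ± 0.27, 0.42), but was 0.94 (0.042) with the chip in the model. Among mitochondrial carriers, Slc25a1, the citrate carrier that supplies lipid synthesis, rose with HDL in the second experiment by 1.03 ± 0.14 in WT cells and 0.53 ± 0.14 in the other label, beside 0.84 ± 0.24 (adjusted p = 0.0536) in the first.

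Promoter windows of 3 carriers raised by HDL are printed from RefSeq (GRCm38.p6, 250 bases before to 50 after the start, 5′ to 3′), so that they can be compared with the rises above. They are Slc22a4 at chr11:54028055-54028354 on the minus strand, Slc30a1 at chr1:191906531-191906830 on the plus strand and 1 of the 3 annotated starts of Slc6a9, 2 of which hold a match, at chr4:117849100-117849399 on the plus strand. Capitals mark matches, on either strand, to TGACNNNGC. The other motifs searched were TGANTCA (AP-1), TGACGTCA (the cyclic AMP response element, a known site of ATF3 and its kin) and TGATGNAA (the CARE site of ATF4), and a stretch can match more than 1 of these motifs. None of the other 3 was found in these windows, and Slc22a4 had no match to any of the 4. Of 32851 promoter windows of all genes, 12.4% held TGACNNNGC, 7.81% TGANTCA, 3.97% TGATGNAA and 1.79% TGACGTCA. Of the 155 kept solute carriers with a window, 33 (21.3%) held TGACNNNGC in at least 1 of their windows, beside 14.0% of all genes, and 11, 6 and 2 held the other 3 in that order. A match describes the letters and is no evidence of binding.
Slc22a4: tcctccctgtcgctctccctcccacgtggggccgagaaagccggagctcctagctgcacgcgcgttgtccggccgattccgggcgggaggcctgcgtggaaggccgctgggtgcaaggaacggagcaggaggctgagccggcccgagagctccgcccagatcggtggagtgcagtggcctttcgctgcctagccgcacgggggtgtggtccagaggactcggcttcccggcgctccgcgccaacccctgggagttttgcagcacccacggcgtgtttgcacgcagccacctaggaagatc
Slc30a1: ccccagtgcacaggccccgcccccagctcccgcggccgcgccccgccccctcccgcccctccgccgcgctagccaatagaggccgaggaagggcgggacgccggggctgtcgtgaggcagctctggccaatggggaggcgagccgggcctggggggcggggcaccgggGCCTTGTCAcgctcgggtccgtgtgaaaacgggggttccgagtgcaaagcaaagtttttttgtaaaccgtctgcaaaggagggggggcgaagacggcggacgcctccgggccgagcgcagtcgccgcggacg
Slc6a9: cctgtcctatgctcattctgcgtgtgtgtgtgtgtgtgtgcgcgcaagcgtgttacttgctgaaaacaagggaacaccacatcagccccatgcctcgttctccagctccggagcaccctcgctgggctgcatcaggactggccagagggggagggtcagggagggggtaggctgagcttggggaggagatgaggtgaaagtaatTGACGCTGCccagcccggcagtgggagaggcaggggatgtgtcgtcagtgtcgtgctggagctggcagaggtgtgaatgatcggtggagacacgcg

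**Figure D3:**
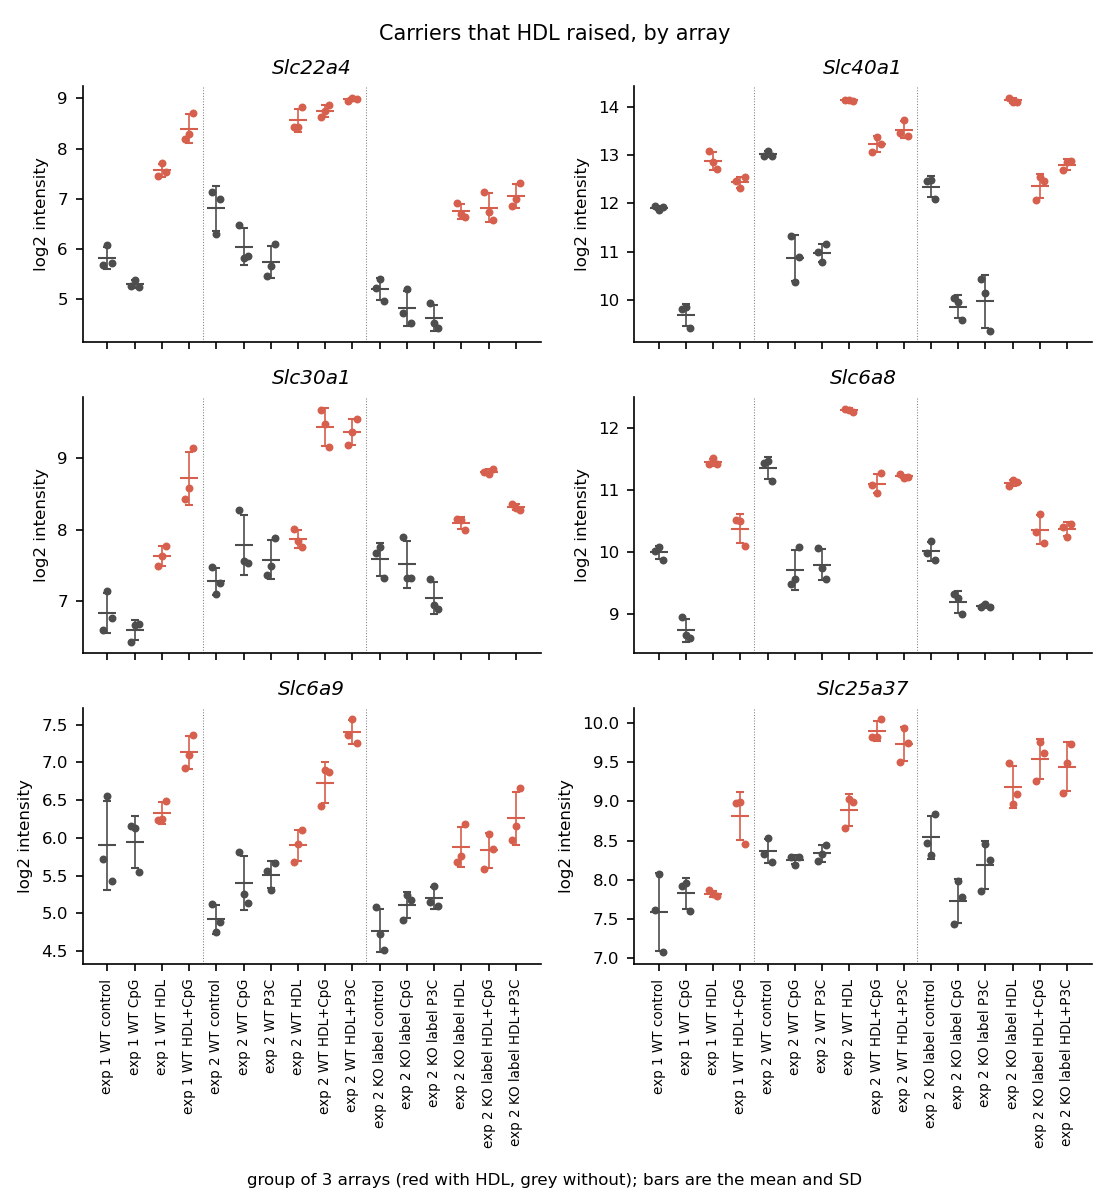
Log2 intensity of Slc22a4, Slc40a1, Slc30a1, Slc6a8, Slc6a9 and Slc25a37 on each macrophage array, by group, with group means and SD and with groups that had HDL in red. For Slc22a4 and Slc40a1 every red group sits above its neighbour without HDL, with or without a ligand.

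Of the carriers that HDL lowered, Slc39a13 and Slc45a4 fell in all 8 comparisons, 1.36% of the 147 tested in both experiments beside 1.28% of all genes. Slc39a13, which ligands raised, read 8.26, 8.57 and 9.19 in control and 6.96, 7.42 and 7.71 with HDL, and 9.79, 9.87 and 10.06 with CpG and 8.52, 8.79 and 9.12 with both in the first experiment. The groups did not overlap, and the falls were -1.31 ± 0.26 and -1.10 ± 0.26. In the second experiment HDL changed it by -0.65 ± 0.13, -0.87 ± 0.13 and -1.06 ± 0.13 in WT cells and by -1.21 ± 0.13, -0.47 ± 0.13 and -0.54 ± 0.13 in the other label, over control, CpG and P3C. Its second probe moved the same way in each comparison of WT cells, for example by -0.92 and -1.25 in the first experiment. Slc45a4, which the ligands lowered too, changed with HDL by -0.83 ± 0.17 over control and -0.97 ± 0.17 over CpG in the first experiment and by -0.61 ± 0.13, -0.64 ± 0.13 and -0.61 ± 0.13 in WT cells of the second.

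Further falls with HDL passed in only some comparisons. The largest with HDL alone in the first experiment was that of Slc6a12, a transporter of betaine and GABA, from 7.80, 7.93 and 8.48 to 5.73, 5.91 and 6.36 (-2.07 ± 0.23, limma adjusted p = 0.000153). The groups were apart on every array. In the second experiment HDL alone changed it by -0.65 ± 0.15 in WT cells, or -0.47 (0.0581) with the chip in the model, and by -1.60 ± 0.15 in the other label, while its change over CpG did not pass in the first (-0.63 ± 0.23, 0.122). Slc7a7, raised by the ligands, fell by 0.98 ± 0.22, 0.62 ± 0.22 and 1.10 ± 0.22 in WT cells of the second experiment, while its changes of -0.56 ± 0.22, -0.53 ± 0.22 and -0.41 ± 0.22 in the other label did not pass. Slc13a3 fell with HDL over P3C in WT cells (-1.52 ± 0.35) and over CpG in the first experiment (-1.11 ± 0.22), not with HDL alone (-0.22 ± 0.35 and -0.39 ± 0.22). The thiamine carrier Slc19a2 fell over CpG by 0.94 ± 0.15 in WT cells and 0.85 ± 0.15 in the other label, and the reduced folate carrier Slc19a1 by 0.61 ± 0.20 and 0.62 ± 0.20. Slc24a3, an exchanger of sodium for calcium and potassium, fell with HDL alone in the first experiment and in both labels of the second, by 0.85 ± 0.17, 0.68 ± 0.19 and 0.85 ± 0.19. Slc1a3, a glutamate transporter kept only in the first experiment among the macrophages, was not above background with HDL and fell at least 2.52-fold from 5.52, 5.97 and 6.74. Of 5 endothelium markers Vwf, detected on all 36 arrays of the second experiment, read 7.88 to 8.09 in WT control and 9.00 to 9.27 in WT HDL arrays. Pecam1 was detected on 11 of the 36, Tek on 1 and Cdh5 and Kdr on none. The part of such cells in the changes with HDL was not tested.

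**Figure D4:**
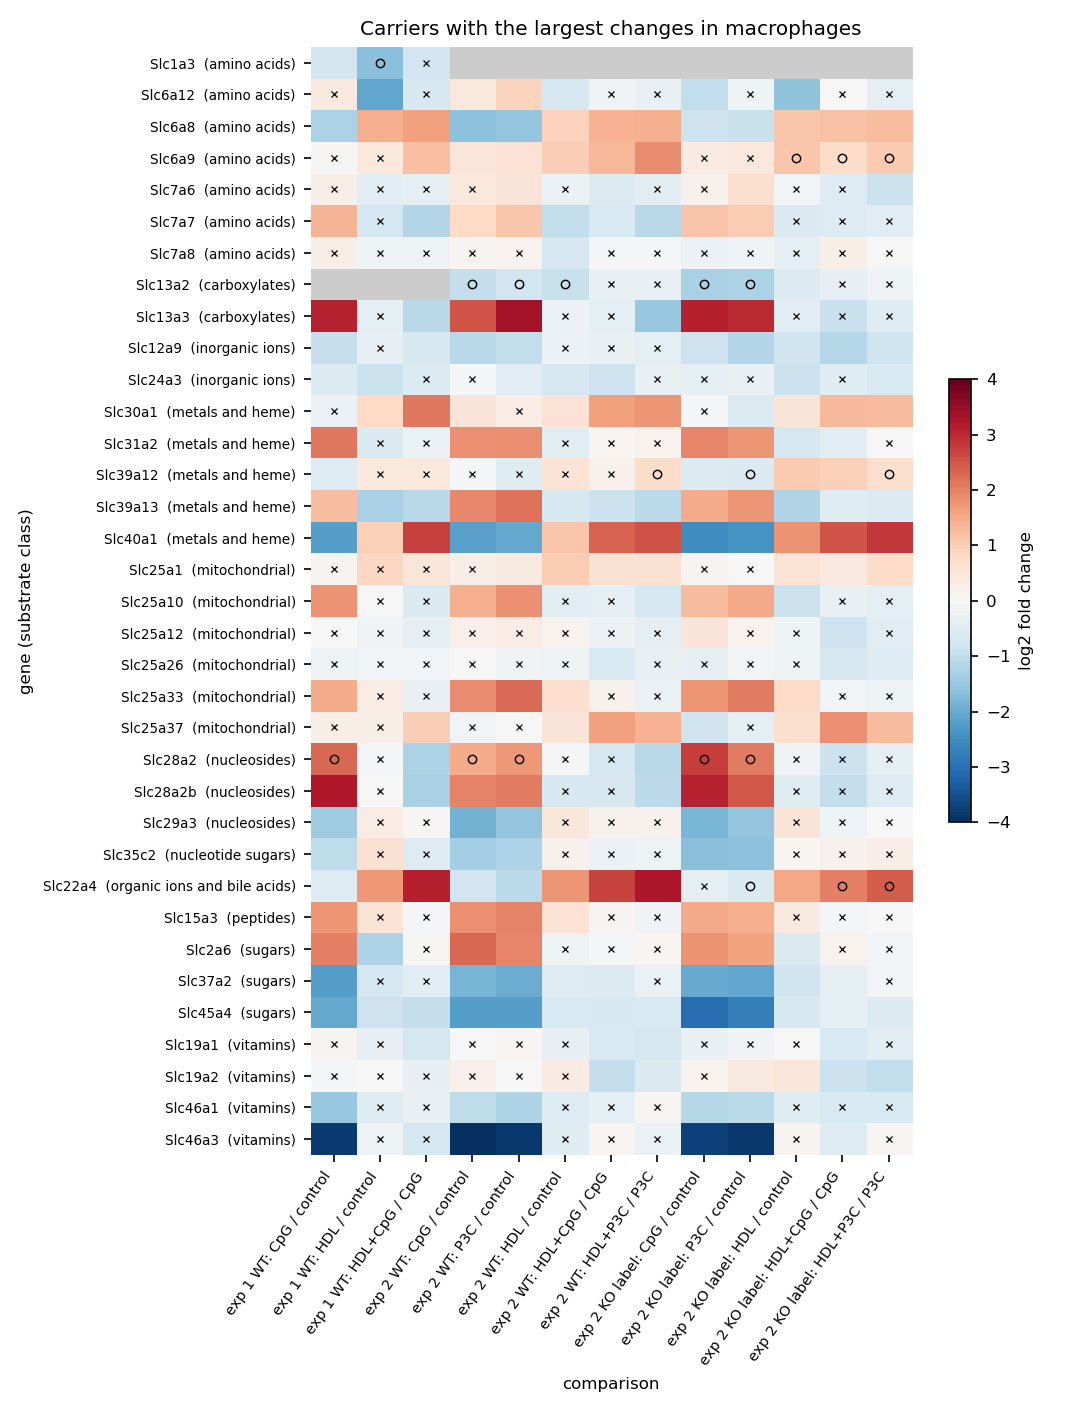
Log2 change of the 35 solute carriers among the 5 largest rises or falls that passed in any of 13 macrophage comparisons, with a cross where the gene did not pass, a circle where it was not above background in one group and grey where it was not tested. Ligand columns share their strongest colours for Slc46a3 and Slc13a3, and HDL columns for Slc22a4 and Slc40a1.

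Whether HDL acted differently with CpG present was tested in the first experiment as the difference between its effect over CpG and its effect over control. In this comparison 3 solute carriers had a higher signed effect with CpG, beside 0.749% of all genes, and 1 a lower one, beside 0.380%. The effect on Slc40a1 was larger by 1.78 ± 0.22 (limma adjusted p = 0.004), which held under all 20 alternatives. That on Slc22a4 was larger by 1.36 ± 0.25 (0.0235), a call lost under 9 of 20 alternatives, 8 of which left out 1 array. Slc2a6, the hexose carrier, fell with HDL alone, from 8.46, 8.86 and 8.91 to 7.24, 7.53 and 7.80 (-1.22 ± 0.18), while arrays with CpG (10.65, 10.71 and 10.93) and with HDL and CpG (10.70, 10.85 and 10.89) overlapped. The difference was 1.27 ± 0.25 (0.0349) and was lost under 11 of 20 alternatives, 10 of which left out 1 array. In the second experiment the fall of Slc2a6 with HDL alone passed in cells labelled ATF3-/- but not in WT cells. Slc28a2 was the lower one, and since it was not above background without CpG no size is given here. For Slc30a1 the difference was 1.32 ± 0.29 (0.0534) and for Slc6a12 1.44 ± 0.32 (0.0581).

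Control cells of both labels differed in the second experiment. Of 162 solute carriers, 14 were higher in cells labelled ATF3-/-, beside 6.46% of all genes, and 11 lower, beside 6.81%. Under median scaling fewer passed, and more of them were lower than higher, as given with the processing below. The median was 0.01, beside -0.02 over all genes. The largest falls were those of Slc22a4 (-1.61 ± 0.22, limma adjusted p = 1.51e-06) and Slc6a8. Slc6a8 read 11.15, 11.43 and 11.47 in WT control arrays and 9.87, 9.97 and 10.17 in those labelled ATF3-/-, with no overlap (-1.34 ± 0.14, 3.37e-08). Within the 2 chips that held both control groups the difference was -1.36 and -1.60 for Slc6a8 and -1.82 and -1.32 for Slc22a4. Slc9b2, a sodium and proton exchanger, was lower by 0.98 ± 0.25, the fatty acid carrier Slc27a1 by 0.76 ± 0.18, Slc7a4 by 0.70 ± 0.17 and Slc40a1 by 0.68 ± 0.20. The call of Slc40a1 was lost with any 1 of 3 arrays left out, WT control replicate 1 or 2 or ATF3-/- control replicate 3, and the last gave 0.55 with an adjusted p of 0.141.

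The largest rise was that of Slc6a12, the transporter of betaine and GABA, which cells use as osmolyte carrier. It read 9.17, 9.34 and 9.39 in WT control arrays and 10.38, 10.62 and 10.68 in those labelled ATF3-/-, with no overlap (1.26 ± 0.15, limma adjusted p = 1.63e-07, 1.33 and 1.34 within the 2 chips). The riboflavin transporter Slc52a3 was higher by 0.91 ± 0.22, Slc25a25 by 0.80 ± 0.21, Slc15a3 by 0.74 ± 0.15 and Slc2a6 by 0.73 ± 0.16. The mean over 5 fibroblast markers was 4.99 to 5.51 on WT arrays and 5.67 to 6.21 on arrays labelled ATF3-/-, where Col3a1 and Pdgfra were detected on none of the 36 arrays. The part of other cells, and of any genetic difference between the lines beside Atf3, was not tested. One such difference is visible: the Erdr1 probe read 11.18 to 11.62 in WT control arrays and 4.31 to 4.55 in those labelled ATF3-/-.

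The difference between labels in the response was tested as the contrast of both responses. For HDL alone the signed change was higher in cells labelled ATF3-/- for 0 solute carriers and lower for 1 (all genes: 0.293% and 0.977%). An unadjusted limma p under 0.05 was reached by 15. A lower signed change can be a steeper fall. For CpG the signed change was higher in cells labelled ATF3-/- for 1 and lower for 2 (all genes: 0.966% and 2.15%). Slc6a12 was the member that passed for HDL, falling from 9.17, 9.34 and 9.39 to 8.55, 8.56 and 8.86 in WT cells and from 10.38, 10.62 and 10.68 to 8.82, 9.03 and 9.04 in the other label. The groups with HDL of both labels lay close to each other, and the difference of the responses was -0.95 ± 0.21 (limma adjusted p = 0.0125). It was lost under median scaling (adjusted p = 1) and without ATF3-/- control replicate 3 (-0.89, 0.0568) or WT HDL replicate 2 (-0.85, 0.0545). With CpG it read 9.54, 9.61 and 10.05 in WT cells and 9.23, 9.69 and 9.82 in the other label, so that it rose in the first by 0.43 ± 0.15 and fell in the second by 0.98 ± 0.15, a difference of -1.41 ± 0.21 (8.62e-05), which under median scaling was -1.41 and missed the threshold (0.0712).

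Slc45a4 fell more with CpG in cells labelled ATF3-/-, from 10.56, 10.59 and 10.60 to 7.46, 7.57 and 7.58, than in WT cells, from 9.89, 9.94 and 10.19 to 7.74, 7.80 and 7.85, a difference of -0.83 ± 0.19 (limma adjusted p = 0.0108). Slc6a8 fell less there, a difference of 0.83 ± 0.20 (0.02), from controls that were already lower. With the chip in the model these became -0.72 (0.0845) and 0.89 (0.0572), and neither passed under median scaling (-0.82, 0.899, and 0.67, 0.993). For 3 carriers that HDL raised throughout the tests of the difference did not pass: -0.20 ± 0.30 (0.999) for Slc22a4, 0.68 ± 0.29 (0.462) for Slc40a1 and -0.08 ± 0.26 (0.999) for Slc30a1. A test that misses the threshold does not show that the labels responded alike. The window of the Slc6a12 start whose letters hold a match to TGANTCA, the AP-1 motif that dimers of ATF3 can also bind, is printed because the responses of this gene to HDL and to CpG both passed the test of a difference between the labels (RefSeq, GRCm38.p6, chr6:121342324-121342623, plus strand, 5′ to 3′, match in capitals). It is 1 of 5 annotated starts, and the other 4 hold no match to the 4 motifs.
Slc6a12: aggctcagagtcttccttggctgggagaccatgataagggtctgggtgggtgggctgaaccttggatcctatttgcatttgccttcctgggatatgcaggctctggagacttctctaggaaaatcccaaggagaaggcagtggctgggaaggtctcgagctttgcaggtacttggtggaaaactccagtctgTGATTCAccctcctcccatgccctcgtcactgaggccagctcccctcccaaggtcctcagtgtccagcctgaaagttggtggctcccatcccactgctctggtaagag

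Carriers outside the set were followed as a list of 29 genes, of which 23 and 22 were tested in the macrophage experiments. With CpG 5 rose and 6 fell in the first experiment, beside 12.8% and 21.3% of all genes. In WT cells of the second 6 rose and 6 fell with CpG, beside 22.1% and 28.9%. With HDL alone 5 rose and 3 fell in the first, beside 3.23% and 4.85%, and 6 and 1 in the second, beside 8.37% and 6.88%. Flvcr1, a heme exporter, moved as Slc40a1 did, down by 1.42 with CpG and up by 1.42 with HDL in the first experiment and down by 1.49 and up by 0.94 in WT cells of the second. Mcoln1, a lysosomal cation channel, rose with HDL by 1.09 and 0.70, and Clcn7, a lysosomal chloride transporter, by 1.28 and 0.89. The cholesterol exporter Abcg1 fell with HDL by 2.60 and 3.05 on the log2 scale.

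In injured carotid arteries no solute carrier passed in any comparison, nor did any other gene (0% called in either direction): HDL against PBS in WT mice, HDL against PBS in mice labelled ATF3-/-, and the labels compared under PBS. At an unadjusted p under 0.05 there were 30, 0 and 0 solute carriers by limma. For HDL in WT arteries the count rests on quantile normalisation: 56 solute carriers fell and none rose under median scaling, where the median of all genes shifted by -1.08, and 54 fell and none rose in the deposited normalised values, where it shifted by -0.63. The medians over the 160 kept were -0.04, 0.01 and 0.05, beside -0.11, -0.02 and 0.01 over all genes. Several arrays stood apart. WT HDL replicates 1 and 3 had the fewest probes detected, 20.5% and 24.5% against 27.6% to 34.0% on the other 10, with 90 and 107 solute carriers detected against 124 to 156. Their smooth muscle markers were low, 7.23 and 6.79 against 9.07 to 10.79 elsewhere, with 3 of 5 detected and Cnn1 detected on 3 of all 12 arrays. The Erdr1 probe read 10.33 on HDL replicate 3 labelled ATF3-/- and 4.48 on WT PBS replicate 3, each the level of the other label in the macrophages. Leaving out the pair with the Erdr1 level of the other label left the counts at 0 in all 3 comparisons. Without the pair with few probes detected, the WT HDL group held 1 array, too few for a count. Leaving out WT HDL replicate 2, the WT HDL array with more probes detected, gave 33 for HDL in WT arteries, 15 higher and 18 lower. That fit kept only the WT HDL arrays with few probes detected, and its share over all genes is not given. In such tissue, fewer cells of a type and less RNA per cell cannot be told apart.

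The solute carriers with the smallest p for HDL in WT arteries did not overlap between groups but missed the threshold. Slc10a7, a relative of the bile acid carriers, read 4.56, 4.81 and 4.84 with PBS and 5.39, 5.74 and 6.60 with HDL (at least 1.95-fold higher, since it was not above background with PBS, limma adjusted p = 0.192). The zinc importer Slc39a4 read 5.02, 6.32 and 6.33 and 7.36, 7.43 and 8.41 (1.84 ± 0.57, 0.192). The copper carrier Slc31a2 read 5.60, 5.78 and 5.86 and 6.62, 6.62 and 6.73 (0.91 ± 0.30, 0.192). Within the 2 chips the HDL arrays were higher by 2.08 and 1.72 for Slc39a4 and by 0.84 and 0.94 for Slc31a2. In mice labelled ATF3-/- the smallest p belonged to Slc37a3 (0.42 ± 0.20), Slc39a11 (-0.60 ± 0.29) and Slc12a3 (-0.37 ± 0.18), and between the labels to Slc37a3 (-0.43 ± 0.20), Slc39a10 (-0.62 ± 0.29) and Slc35a5 (-0.42 ± 0.24), all with an adjusted p of 1. The carriers that HDL raised in macrophages gave 0.84 ± 0.73 for Slc40a1 and 0.21 ± 0.28 for Slc22a4 in WT arteries.

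Much larger than these differences was the spread between single arteries for 5 carriers, chosen after their values were seen. The glycine transporter Slc6a9 read 4.52 and 5.26 on the WT HDL arrays with few probes detected and 7.13 to 8.57 on the other 10. Slc2a6 ranged from 6.69 on WT PBS replicate 1 to 10.47 on WT HDL replicate 3, where the mean of the macrophage markers, all 5 detected on every array, was 8.32 and 10.84. Slc25a37 and the red cell anion exchanger Slc4a1, itself among the 3 red cell markers, were highest on WT HDL replicate 3 (12.22 and 11.03) and HDL replicate 1 labelled ATF3-/- (11.60 and 12.04), the arrays with the highest means of red cell markers (13.25 and 13.54). Slc1a3 was highest on WT PBS replicate 3 (11.35), ATF3-/- PBS replicate 2 (10.26) and ATF3-/- HDL replicate 3 (10.05), which also had the highest means of fat markers (8.59, 7.57 and 8.20), with 4 of 5 detected. The part of other tissue in these values was not tested.

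**Figure D5:**
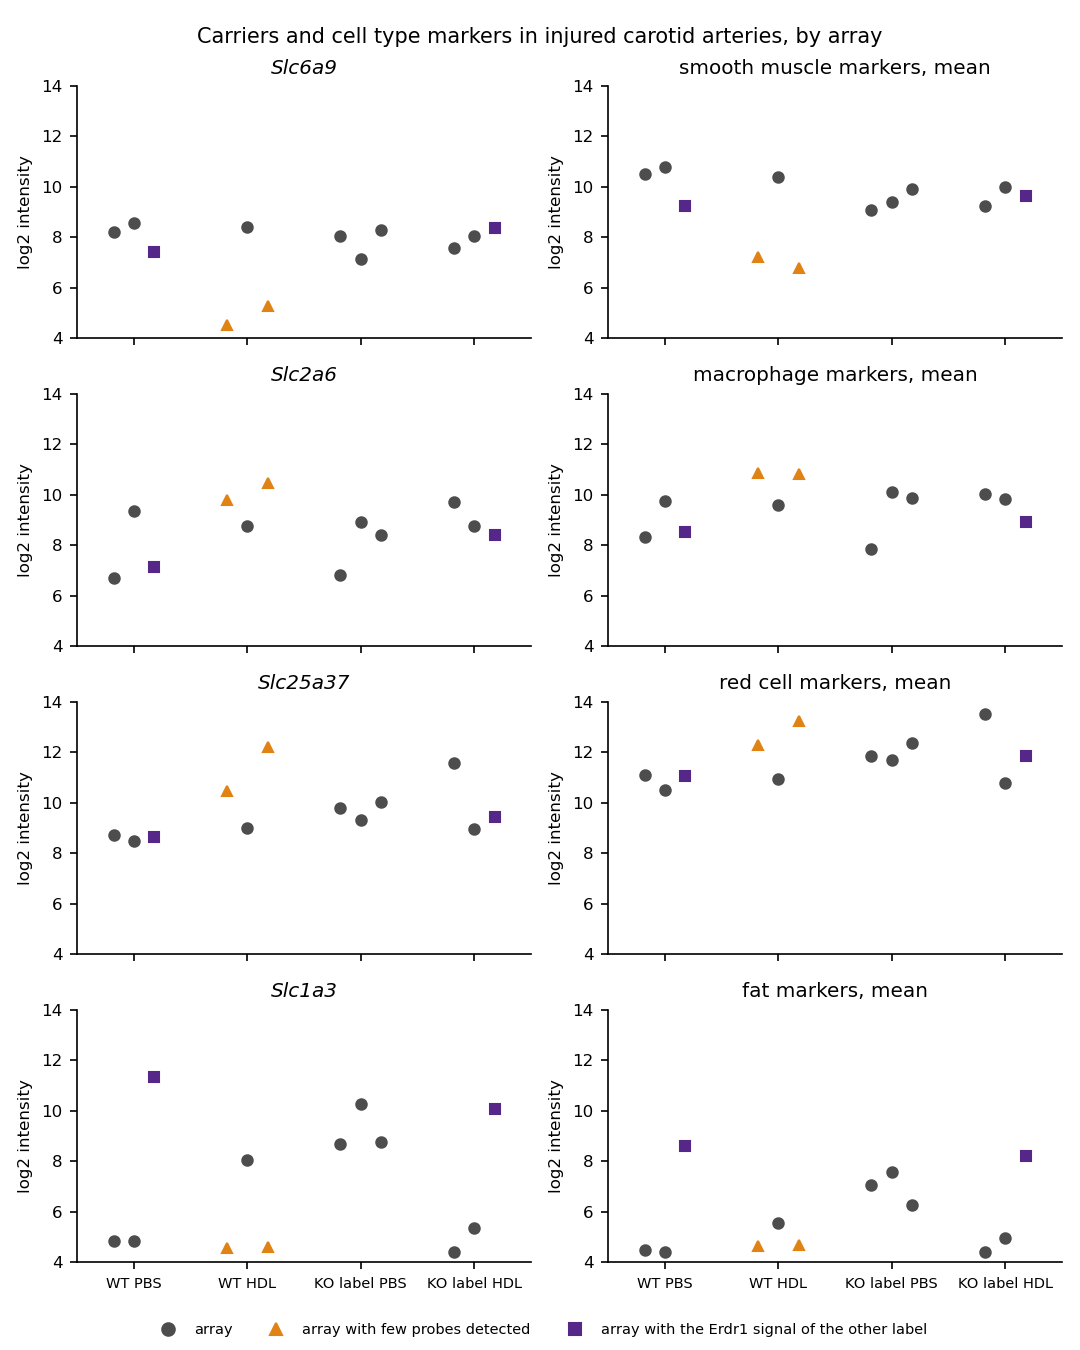
Log2 intensity in each of the 12 artery arrays of Slc6a9, Slc2a6, Slc25a37 and Slc1a3 beside the mean of the smooth muscle, macrophage, red cell and fat markers, with triangles for the arrays with few probes detected and squares for those whose Erdr1 level is that of the other label. Single arrays that are high or low for a carrier tend to be so for the markers beside it, such as the WT HDL arrays with 4.52 and 5.26 for Slc6a9.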

How the data were processed

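Whole-genome expression was measured on Illumina mouse BeadChips in 3 experiments of 12, 36 and 12 arrays. The deposited tables hold a non-normalised signal intensity per probe, per the file headers, and a detection p-value per probe, which the authors deposited beside it. The authors' deposited matrix, with normalised intensities for macrophages and log2 values for arteries, was used only as an alternative. Its macrophage values were put on the log2 scale first. The submitters' processing notes name Partek, and what it did to the matrix is not given in the sources used here. Of 45281 probes, 34885 had 1 symbol in the platform annotation, 18 several and 10378 none.

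Each experiment was processed apart with limma 3.58.1 in R 4.3.3. The function neqc corrected the background from the detection p-values, added an offset of 16, quantile-normalised and took log2. A gene was tested when detected at a p under 0.01 on at least 3 arrays, with its brightest probe. One mean per group was fitted, contrasts were tested with empirical Bayes moderation, and p-values were adjusted by the Benjamini-Hochberg method over all genes tested. A gene detected on none of a group's arrays was given as a bound. Figures were drawn with matplotlib 3.10.9 in Python 3.11.15. The fit was tested on simulated data.

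The solute carriers, their substrate classes, the marker lists and the list of other carriers were chosen with earlier results of these data known. Genes were named when they had the 5 largest rises or falls past the threshold in a macrophage comparison, the 3 smallest p-values in an artery comparison, or were on a list of carriers followed throughout, and exceptions are marked where they stand. Alternatives changed the background correction, the scaling, the filter, the choice of probe, the chip as a fixed or random effect, the groups in the fit, or left out 1 array. The replicate numbers were given in accession order and pair nothing.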

Additional observations from a re-analysis of the deposited data

Results flagged for a closer look

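The effect of HDL differed with CpG present in the first experiment, by the interaction test, for 4 solute carriers. It was larger with CpG for the iron exporter Slc40a1 by 1.78 and for Slc22a4 by 1.36 on the log2 scale. For the hexose carrier Slc2a6 the signed difference was 1.27. It fell with HDL alone, while its CpG arrays with and without HDL overlapped. The fall of Slc2a6 with HDL alone did not pass in WT cells of the second experiment. For the nucleoside carrier Slc28a2 the fitted difference was -1.21, which is no measured size because its probe was not above background without CpG, and which cannot be told from the near-identical Slc28a2b.

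The response of cells labelled ATF3-/- differed from that of WT cells, by the test of the difference, for 3 solute carriers in the second experiment. The betaine carrier Slc6a12 differed by -0.95 in its response to HDL and by -1.41 in its response to CpG. The response to CpG differed by -0.83 for Slc45a4 and by 0.83 for the creatine carrier Slc6a8. Under median scaling none of these differences passed, and a fit that includes the chip gave an adjusted p of 0.0845 for Slc45a4 and 0.0572 for Slc6a8. In each case the control cells of both labels also differed, as the values of Slc6a12 and Slc6a8 above show.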

How the results depend on the processing

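Scaling moved the number of solute carriers past the threshold in many comparisons. Median scaling in place of quantile normalisation gave 2 for the HDL by CpG interaction in the first experiment. In WT cells of the second experiment it gave 6 for HDL (5 up, 1 down), 8 for HDL with CpG over CpG (6 up, 2 down) and 11 for HDL with P3C over P3C (7 up, 4 down). In cells labelled ATF3-/- the same counts were 11 (8 up, 3 down), 11 (9 up, 2 down) and 7 (6 up, 1 down). It gave 8 for the label in control cells (2 up, 6 down), and 0 for both differences of response. In WT arteries 56 were lower with HDL under median scaling and 54 in the deposited matrix, where the main count was 0. The median of all genes was lower there too, as given with the arteries. Shares of all genes past the threshold are not given for these settings. In them Slc11a2 turned to -1.09 and -0.61 and Slc44a1 to -1.20 and -1.07. Splits also moved with median scaling for HDL with CpG over CpG in the first experiment (7 up, 5 down), and for CpG in WT cells (15 up, 45 down), CpG (15 up, 49 down) and P3C (15 up, 45 down) in cells labelled ATF3-/-. It moved the median of all genes by -0.20 for CpG and 0.15 for HDL in the first experiment, and in the second by -0.23 for CpG and -0.13 for P3C in WT cells, -0.24 and -0.23 in the other label and -0.18 between the control cells. In arteries the shift was 0.35 for HDL in the other label and -0.40 between labels. The cause was not tested.

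Fitting only the groups compared gave 6 for HDL in the first experiment, 53 for CpG in WT cells, 9 for HDL with CpG over CpG there, 16 for the same in cells labelled ATF3-/-, and 1 for the difference in the response to CpG, with fewer arrays to estimate the spread. The chip as a fixed effect gave 8 up and 6 down for HDL in the first experiment, 7 for the interaction and 1 for that difference, and as a random effect 9 for the interaction.

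Leaving out 1 array gave 48 to 64 for CpG, 8 to 15 for HDL, 9 to 14 for HDL with CpG and 1 to 3 for the interaction in the first experiment. The 15 came without control replicate 3, the 9 without HDL with CpG replicate 2 and the 1 without CpG replicate 1. In WT cells of the second it gave 76 to 84 for CpG, 75 to 80 for P3C, 19 to 27 for HDL, 23 to 34 for HDL with CpG and 22 to 27 for HDL with P3C. In cells labelled ATF3-/- these were 79 to 84, 74 to 80, 33 to 43, 24 to 30 and 20 to 25. It gave 18 to 22 for the label, 0 to 2 for its HDL difference (0 without ATF3-/- control replicate 3) and 2 to 10 for its CpG difference (10 without WT CpG replicate 2). In arteries it gave 0 to 33 for HDL in WT mice and 0 to 0 for the other 2 comparisons. Over single genes named, leaving out 1 array left the call unchanged in 4323 cases, lost 204 calls and gained 36. Genes that passed in neither fit count among the unchanged.

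No paired analysis was possible because the replicate numbers only follow accession order and pair no arrays. Signal over background limits genes such as Slc6a9 and Slc28a2, which were detected on part of the arrays only.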
